A study of Homo sapiens with 2 samples.

Results

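Replication-dependent histone genes encode the linker histone H1 and the core histones H2A, H2B, H3 and H4, the proteins that package newly copied DNA. The genes described here are the RefSeq protein-coding genes of GRCh38.p14 on chromosomes 1 and 6 whose symbols start with H1-, H2AC, H2BC, H3C or H4C. They numbered 68 of 19974 protein-coding genes on chromosomes 1 to 22 and X, with 55 on chromosome 6 and 13 on chromosome 1. The rule used name and position and no measured value, but it was set with earlier results of these data known.

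TCF19, a nuclear protein with a forkhead-associated domain and a PHD finger, was mapped by ChIP-seq with the antibody sc-101169 in Ishikawa cells, a human endometrial cancer cell line. The control library came from cells with a control lentivirus, labelled negative control, and the other, called the TCF19 library here, from cells with a lentivirus for TCF19 over-expression. Both populations were selected with puromycin, and both had the same cell line, antibody and fixation. Each group had 1 library and 1 deposited peak list, so the condition was not tested. Intervals given with read counts are exact Poisson 95% intervals and cover counting error only. The amount of TCF19 in the cells cannot be checked from peaks.

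Replication-dependent histone genes are short, mostly lack introns and are expressed in S phase. Their transcripts end in a stem-loop, bound by SLBP, in place of a poly(A) tail, and their transcription is driven by NPAT at nuclear bodies that form on the gene clusters. Many H2A and H2B genes are paired head to head around a shared promoter. The labelled cell type cannot be checked against marker expression here, because the files hold peaks and no expression values.

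There were 170334 summits in the control list and 112212 in the TCF19 list. A summit is the base of highest read coverage in a called peak, and its pileup is the number of reads, extended to fragment length, that cover it. The genome average of pileup was taken as the lowest background in the peak statistics of any summit and was not measured from reads. It was 1.58 reads for control and 1.43 for the TCF19 library. The sources used here do not say whether an input was sequenced, and the part of open chromatin and DNA copy number in pileups and folds was not tested.

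Upstream DNA of chosen members is shown first, because it differs by histone type and because it is where few summits lay. For each type, among genes of at most 2000 bp with a RefSeq promoter entry, the one with the highest pileup within 100 bp of the gene is given, followed, where there is one, by a gene with no summit in either library. The lines hold the 150 bases before the gene start from RefSeq, GRCh38.p14, written 5′ to 3′ along the gene. Capitals mark 3 motifs, each searched on both strands, and matches that overlap run together. TATAAA is the core of the TATA box. The letters CCAAT are those of the CCAAT box. The octamer is ATTTGCAT. Capitals such as ATTGG are a motif read from the opposite strand.
H1-2 (chr6:26056471-26056620, minus strand): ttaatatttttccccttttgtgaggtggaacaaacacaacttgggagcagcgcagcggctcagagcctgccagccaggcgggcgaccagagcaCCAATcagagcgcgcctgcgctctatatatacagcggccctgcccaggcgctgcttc
H2AC17 (chr6:27893186-27893335, minus strand): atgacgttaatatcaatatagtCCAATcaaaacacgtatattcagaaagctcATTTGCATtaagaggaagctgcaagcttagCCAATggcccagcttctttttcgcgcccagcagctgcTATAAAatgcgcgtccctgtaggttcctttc
H2AC1 (chr6:25726563-25726712, minus strand): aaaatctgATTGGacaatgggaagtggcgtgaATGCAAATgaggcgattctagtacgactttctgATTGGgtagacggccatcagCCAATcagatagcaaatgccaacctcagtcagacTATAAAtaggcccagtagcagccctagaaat
H2BC6 (chr6:26183611-26183760, plus strand): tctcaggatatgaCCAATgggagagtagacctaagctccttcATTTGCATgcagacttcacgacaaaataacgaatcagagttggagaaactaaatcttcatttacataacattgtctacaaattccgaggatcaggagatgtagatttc
H2BC3 (chr6:26043714-26043863, minus strand): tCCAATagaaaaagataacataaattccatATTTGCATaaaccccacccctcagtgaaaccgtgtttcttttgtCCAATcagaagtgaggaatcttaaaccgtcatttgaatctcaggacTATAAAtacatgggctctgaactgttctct
H3C13 (chr1:149813694-149813843, minus strand): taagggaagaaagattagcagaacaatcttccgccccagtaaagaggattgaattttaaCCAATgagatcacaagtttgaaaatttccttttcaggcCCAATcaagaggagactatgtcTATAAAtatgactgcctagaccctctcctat
H3C7 (chr6:26250636-26250785, minus strand): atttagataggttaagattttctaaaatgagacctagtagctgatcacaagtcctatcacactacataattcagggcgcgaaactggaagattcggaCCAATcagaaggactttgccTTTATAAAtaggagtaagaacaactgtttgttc
H4C12 (chr6:27831561-27831710, minus strand): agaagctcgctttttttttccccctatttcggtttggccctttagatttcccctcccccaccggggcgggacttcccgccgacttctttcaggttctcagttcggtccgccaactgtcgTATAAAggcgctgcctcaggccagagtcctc
H4C5 (chr6:26204460-26204609, plus strand): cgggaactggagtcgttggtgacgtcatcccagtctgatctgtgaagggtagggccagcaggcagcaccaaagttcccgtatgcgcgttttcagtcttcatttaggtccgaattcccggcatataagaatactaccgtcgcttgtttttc

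The motifs differed between histone types. In the 250 bases before the start, CCAAT stood in 54 of the 63 members with a promoter entry (85.7%), against 34.4% of 15813 coding-gene promoters. TATAAA stood in 41 members (65.1%), against 9.36%, and ATTTGCAT in 26 (41.3%), against 1.67%. H4 promoters had CCAAT in 3 of 12 and no octamer, whereas all 18 H2B promoters had CCAAT and 14 had the octamer. Of 16 H2A promoters 11 had the octamer, but head-to-head neighbours share much of this DNA. Among the 44 members with a summit in either library, 28 had TATAAA (63.6%), 39 had CCAAT (88.6%) and 17 had the octamer (38.6%). Among the 19 without a summit the counts were 13 (68.4%), 15 (78.9%) and 9 (47.4%). H2AC12, H3C11, H3C12, H4C1 and H4C3 had no promoter entry.

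Peaks at the histone genes were about as frequent as at all coding genes, and more frequent than at other short genes taken as a whole. In control, 39 of 68 members (57.4%) had a summit within 1000 bp of either gene end, where 54.6% of all coding genes had one. In the TCF19 library 45 members (66.2%) had one, against 64.8% of all coding genes. Members with a summit in both libraries numbered 37 (54.4%, background 48.8%), those in the TCF19 library alone 8 (11.8%, background 16.0%) and those in control alone 2 (2.94%, background 5.84%). The remaining 21 had none (30.9%, background 29.4%). Most members are far shorter than a typical gene (median length 494.5 bp), so their windows cover less DNA. Among 1189 other coding genes of at most 2000 bp, 38.4% had a summit in control and 39.4% in the TCF19 library. Of those short genes 30.4% had one in both, 9.0% in the TCF19 library alone, 7.99% in control alone and 52.6% in neither. That class holds 189 olfactory receptor genes, of which 13.8% had a control summit, and 94 keratin-associated protein genes, with 60.6% in control and 57.4% in the TCF19 library. The other 906 genes had 41.3% and 44.4%. The 60 members of at most 2000 bp had 56.7% and 65.0%, near the keratin-associated protein genes in control. Per 10 kb of window there were 2.77 distinct summits in control and 2.84 in the TCF19 library, against 1.92 and 2.39 for all coding genes.

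**Figure D1:**
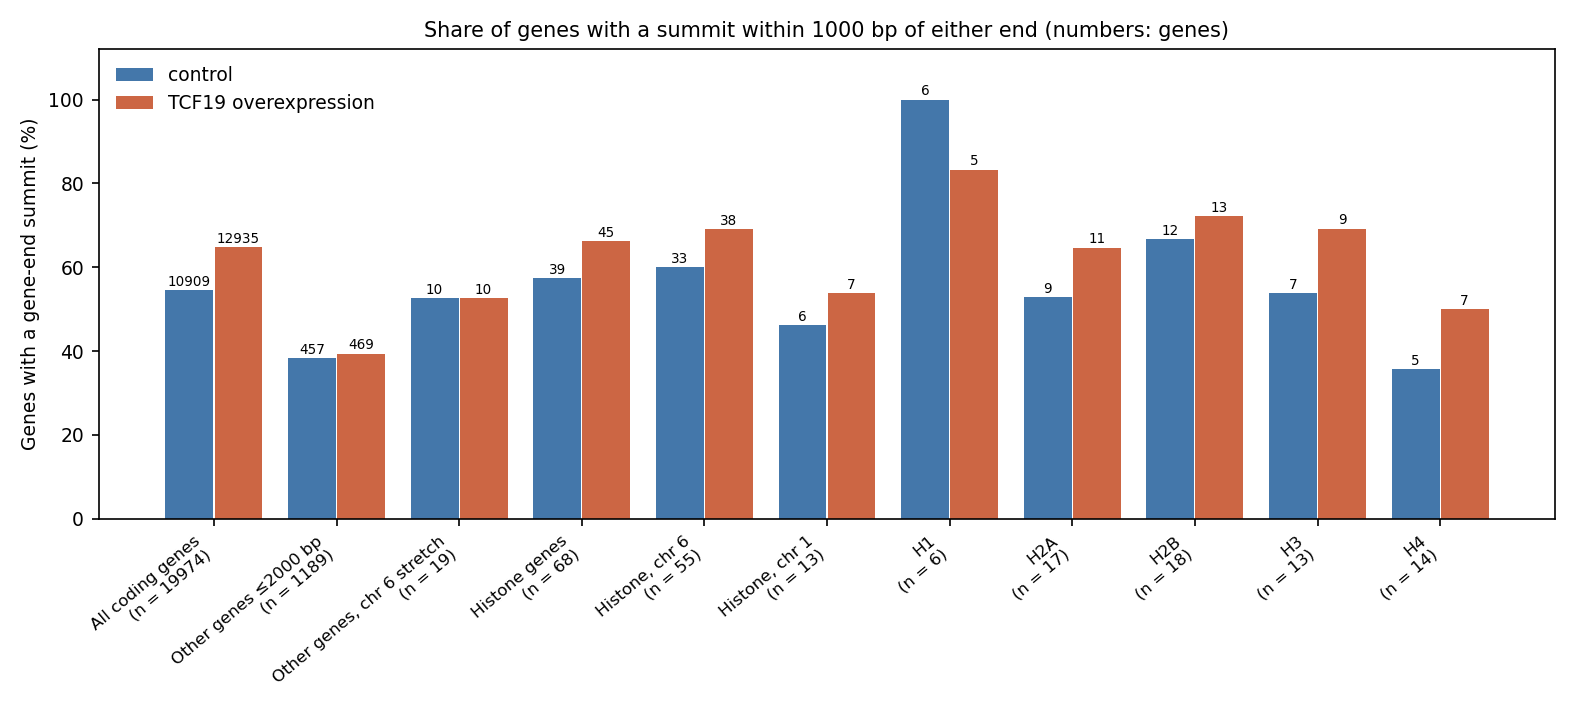
Percentage of genes with at least 1 summit within 1000 bp of either gene end, for control (blue) and TCF19 overexpression (orange), with the number of genes on each bar and no error bars, since each group had 1 library. The 68 histone genes stood at 57.4% and 66.2%, near all coding genes (54.6% and 64.8%) and above other genes of at most 2000 bp (38.4% and 39.4%).

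Neighbouring members often shared a window. The window of 52 of the 68 members overlapped that of another member, and merging them left 46 separate loci. The 39 members in control rested on 40 distinct summits, of which 12 lay in the windows of 2 members. The 45 members in the TCF19 library rested on 41 distinct summits, of which 14 lay in the windows of 2 or more. Counted by locus, 26 of 46 had a summit in control and 29 in the TCF19 library.

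Chromosome 6 held most of the members and most of those with a summit, unevenly along the chromosome. Members are separated there into 3 stretches by gaps of over 300 kb. Of 55 chromosome 6 members, 33 (60.0%) had a summit in control and 38 (69.1%) in the TCF19 library. Of 13 chromosome 1 members, 6 (46.2%) and 7 (53.8%) had one. The 13 include 6 consecutive members with no summit in either library. Among the other 7, which are set apart by that result, 6 had one in control and all 7 in the TCF19 library. Chromosome 6 members without a summit were not left out in the same way, so the 7 are not compared with chromosome 6. Counted by merged window, 3 of 9 chromosome 1 loci had a summit in each library. On chromosome 6 it was 23 of 37 in control and 26 of 37 in the TCF19 library. Distinct summits per 10 kb of window were 3.09 and 3.01 on chromosome 6 and 1.43 and 2.14 on chromosome 1. The 19 other coding genes between the outermost chromosome 6 members, which include butyrophilin, zinc finger and SLC17A transporter genes, had a summit at 10 in each library (52.6%), with 1.26 and 1.53 summits per 10 kb. Both libraries had one at 9 of them (47.4%), each library alone at 1 (5.26%), and neither at 8 (42.1%).

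The 3 stretches of chromosome 6 differed in how many members carried a summit. In the first, from H2AC1 to H4C8 (chromosome 6, 25726063 to 26285534), 16 of 34 members had a summit in control and 17 in the TCF19 library. All 15 chromosome 6 members without any summit lay in it, among them the testis genes H2AC1 and H2BC1. They included an unbroken run of 6 from H2AC7 to H3C6 and another of 3 from H4C7 to H2BC9. H3C6 has a gene model of 3296 bp, and summits inside it lay more than 1000 bp from either end. In the second stretch, from H2BC11 to H2AC12 (27132316 to 27147562), all 5 members had a summit in both libraries. In the third, from H2BC13 to H2BC17 (27807479 to 27893891), 12 of 16 had one in control and all 16 in the TCF19 library. The local read density around member summits, as the background in the peak statistics, was highest in the third stretch. Its median was 2.29 times the genome average in control and 2.55 times in the TCF19 library, against 1.48 and 1.93 in the first stretch. The part of local density in these counts was not tested.

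**Figure D2:**
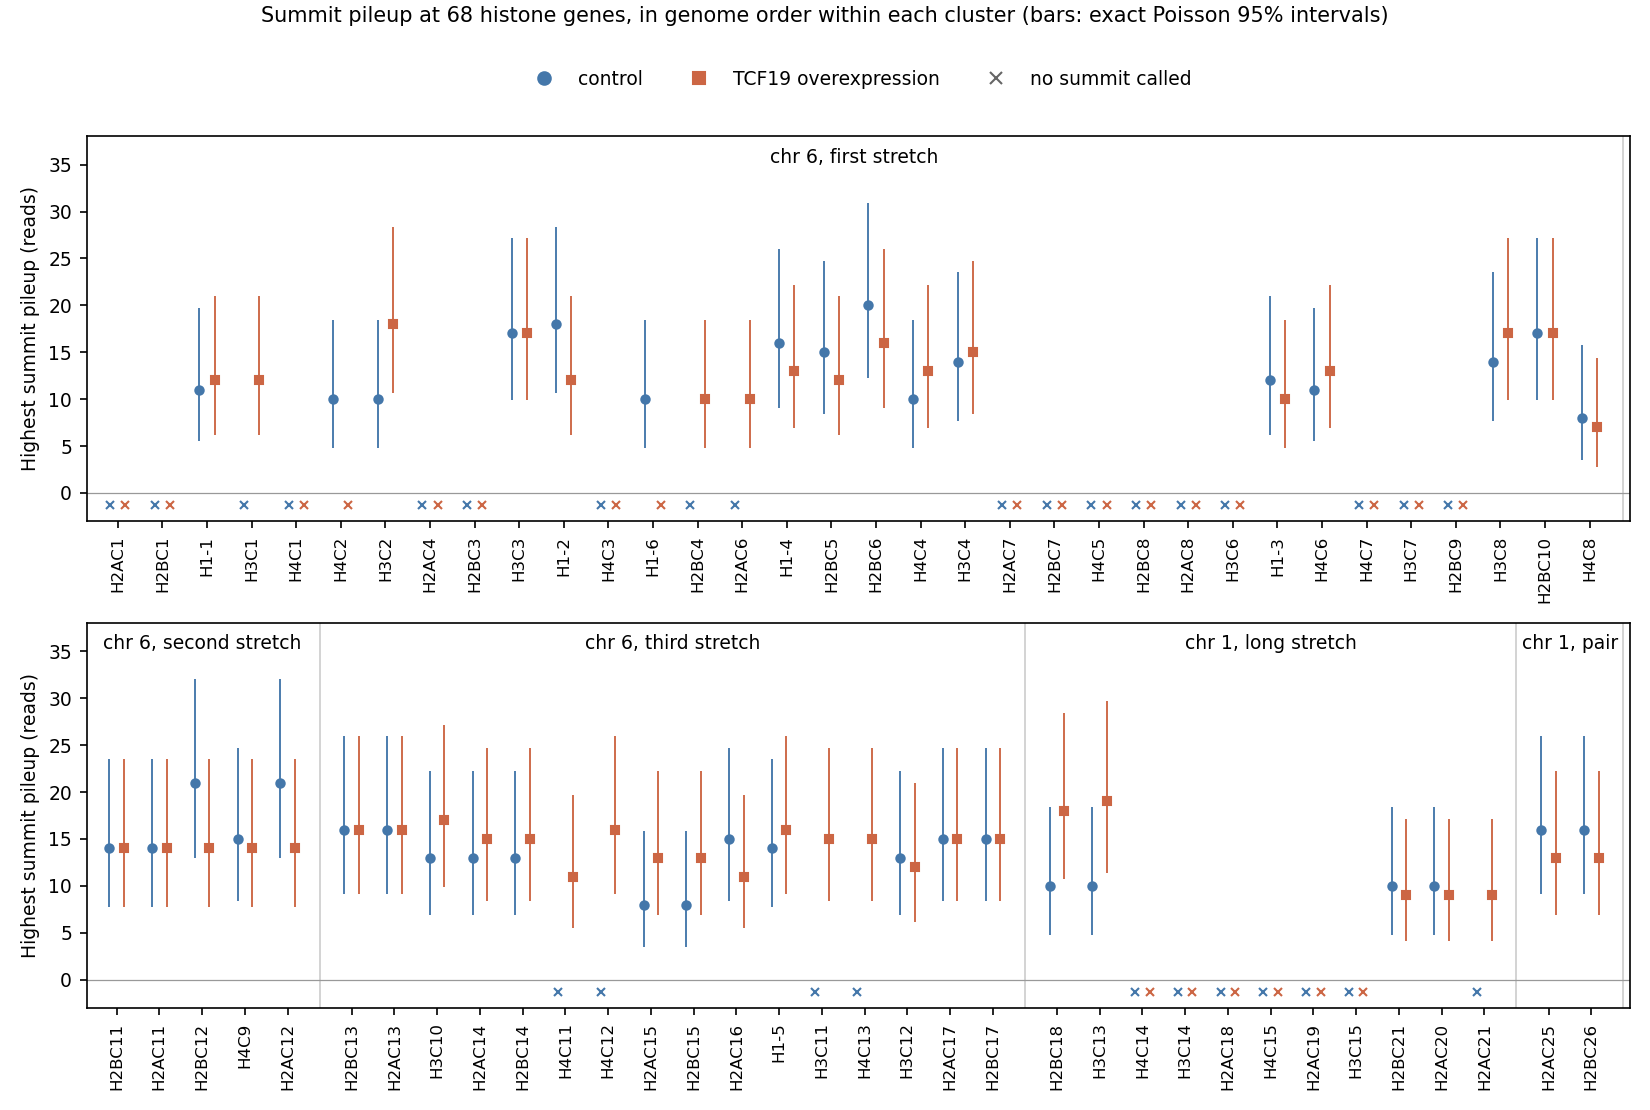
Highest summit pileup in reads within 1000 bp of each of the 68 histone genes, in genome order within each stretch, for control (blue circles) and TCF19 overexpression (orange squares); bars are exact Poisson 95% intervals and crosses mark genes with no called summit. Pileups ran from 7 to 21 reads, the intervals of both libraries overlapped at all 37 genes with 2 values, and empty runs stand in the first chromosome 6 stretch and the long chromosome 1 stretch.

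On chromosome 1 the members without a summit were consecutive and came in pairs of copies with near-identical promoters. They were H4C14, H3C14, H2AC18, H4C15, H2AC19 and H3C15, between 149832657 and 149861240. No summit of either library lay between those at 149817064 and 149880725, a distance of 63.7 kb. Of 24002 gaps between neighbouring summits of both lists on chromosome 1, 368 (1.53%) were at least as long. Within single lists the gap was 63.7 kb in control and 73.5 kb in the TCF19 library. There 3.09% and 6.23% of gaps were at least as long. The stretch was picked because it was empty, and these shares count gaps and not bases, so they do not measure how unusual it is. The promoters of H4C14 and H4C15 were identical over 300 of 300 bases. Those of H2AC18 and H2AC19 were identical over 299 bases at a shift of 1 base, and those of H3C14 and H3C15 over 296 at a shift of 4. Both H2A copies are printed to show this, with capitals as above.
H2AC18 (chr1:149842751-149842900, minus strand): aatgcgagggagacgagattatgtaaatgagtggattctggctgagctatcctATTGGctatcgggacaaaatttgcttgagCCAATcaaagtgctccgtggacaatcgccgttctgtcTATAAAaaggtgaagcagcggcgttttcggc
H2AC19 (chr1:149850911-149851060, plus strand): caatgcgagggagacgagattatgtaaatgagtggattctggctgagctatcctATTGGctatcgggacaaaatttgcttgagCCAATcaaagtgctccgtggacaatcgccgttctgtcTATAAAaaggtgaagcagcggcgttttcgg
Among 1952 pairs of member promoters the only other pair above 95% was H4C11 and H4C12, in the third chromosome 6 stretch, with 295 of 300 bases identical (98.3%). Both had a summit in the TCF19 library and none in control. That of H4C11 stood 31 bp past the gene start, and that of H4C12 just past the gene end. How reads that fit several copies were treated is not given in the sources used here, and their part in the empty stretch was not tested.

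All linker histone H1 genes lay on chromosome 6, and each had a summit in at least 1 library: 6 of 6 in control and 5 of 6 in the TCF19 library. Over all coding genes 54.6% had a summit in control, 64.8% in the TCF19 library and 29.4% in neither. Those shares stand beside the counts of every type below, and with 6 genes nothing is read from the H1 count. H1-2, a widely expressed subtype, had 18 reads in control (10.7 to 28.4) and 12 in the TCF19 library (6.2 to 21.0). Its summits stood 11 bp apart, at 26056427 and 26056438, within 50 bp of the gene start. H1-4 had 16 reads (9.1 to 26.0) and 13 (6.9 to 22.2). H1-5 had 14 (7.7 to 23.5) and 16 (9.1 to 26.0). Control was thus the higher library at H1-2 and H1-4 and the lower at H1-5, with overlapping intervals at each. H1-6, the testis linker histone, had 10 reads (4.8 to 18.4) in control and no summit in the TCF19 library. An equal occupancy at the depth of the TCF19 library would be 9.0 reads, and the lowest pileup called there at a like background was 6.

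H2A genes, which encode a core histone that dimerises with H2B, had a summit at 9 of 17 members in control and 11 in the TCF19 library. The highest values belonged to windows shared with an H2B gene. H2AC12 and H2BC12 shared the highest member summit of either library, 21 reads (13.0 to 32.1) in control at 27147333, inside H2AC12. Their highest overexpression summit had 14 reads (7.7 to 23.5) at 27146529, inside the model of H2BC12, 804 bp away. H2AC13 shared with H2BC13 a summit of 16 reads (9.1 to 26.0) in each library, at 27807641 and 27807714. Both of these stood inside H2BC13. H2AC25 and H2BC26, the isolated chromosome 1 pair, shared 16 reads in control (9.1 to 26.0) and 13 in the TCF19 library (6.9 to 22.2). H2AC14 and H2BC14 shared 13 reads in control (6.9 to 22.2) and 15 in the TCF19 library (8.4 to 24.7). H2AC17 and H2BC17 shared 15 reads (8.4 to 24.7) in each. Intervals overlapped at each of these pairs.

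H2B genes had a summit at 12 of 18 members in control and 13 in the TCF19 library. H2BC6 had 20 reads in control (12.2 to 30.9) and 16 in the TCF19 library (9.1 to 26.0). Its summits lay 10 bp apart, 284 and 274 bp past the gene start. H2BC10 had 17 reads (9.9 to 27.2) in each library, the overexpression value from a summit that also lies in the window of H3C8. H2BC18, whose gene model of 29682 bp is the longest of the members, had 10 reads (4.8 to 18.4) and 18 (10.7 to 28.4), but both summits lay at H3C13. H2BC4 had a summit in the TCF19 library alone, with 10 reads (4.8 to 18.4), and it stood inside its partner H2AC6.

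H3 genes had a summit at 7 of 13 members in control and 9 in the TCF19 library. H3C13 had 10 reads in control (4.8 to 18.4) and 19 in the TCF19 library (11.4 to 29.7). H3C2 had 10 (4.8 to 18.4) and 18 (10.7 to 28.4). Both were higher in the TCF19 library, and the intervals still overlapped. H3C3 had 17 reads (9.9 to 27.2) in each library, with summits 37 bp apart. H3C10 had 13 (6.9 to 22.2) and 17 (9.9 to 27.2), and H3C4 had 14 (7.7 to 23.5) and 15 (8.4 to 24.7). H3C8 had 14 (7.7 to 23.5) and 17 (9.9 to 27.2), at summits 26272367 and 26272376, both upstream of the gene. These summits also lie in the window of H2BC10, to which they are nearer, and inside the pseudogene H2AC10P. The TCF19 library had no summit inside H3C8, so the ratio of H3C8, 1.34, compares summits outside the gene. The ratio of pileups, overexpression over control and each over its genome average, was above 1 at all 7 H3 genes with a summit in both libraries, with a median of 1.34 and a range of 1.02 to 2.104. Over the 9742 coding genes with a summit in both, the ratio was above 1 at 7911, with a median of 1.303.

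H4 genes had a summit at 5 of 14 members in control and 7 in the TCF19 library. This was the lowest share by type, but the order depends on shared windows: with each summit given to the nearest member, H2A fell lower, at 5 and 8 of 17, and H4 stayed at 5 and 7 of 14. With a fold of at least 4, H3 was the lowest in control, at 1 of 13, against 2 of 14 for H4. H4C9 had 15 reads in control (8.4 to 24.7) and 14 in the TCF19 library (7.7 to 23.5), with overlapping intervals. H4C6 had 11 (5.5 to 19.7) and 13 (6.9 to 22.2), and H4C4 had 10 (4.8 to 18.4) and 13 (6.9 to 22.2). H4C2 had 10 reads (4.8 to 18.4) in control alone. H4C12 had 16 reads (9.1 to 26.0) in the TCF19 library alone, at 27831171, just past the end of the gene. H4C13 had 15 (8.4 to 24.7) there alone, at 27873343, a summit that lies also in the window of H3C11. Equal occupancies would give 17.7 and 16.6 reads at the depth of control, where the lowest pileup called at a like background was 11. The 4 H4 members without a summit on chromosome 6 were H4C1, H4C3, H4C5 and H4C7.

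Member pileups were near the gene-end median in control and below it in the TCF19 library. In control the highest pileup of the 39 members ran from 8 to 21 reads with a median of 14, which is also the median over all coding genes with a summit. In the TCF19 library it ran from 7 to 19 with a median of 14, below the median of 17 over all coding genes. Fold enrichments, the authors' values, ran from 2.65 to 5.92 in control and from 2.43 to 6.13 in the TCF19 library, which was reached at H3C2. At the ends of the control range, the intervals were 13.0 to 32.1 at 21 reads and 3.5 to 15.8 at 8 reads. These overlapped, but overlap of single intervals does not place a difference within counting error. Between libraries, 26 of 38 member intervals in control (68.4%) and 26 of 39 in the TCF19 library (66.7%) overlapped an interval of the other list. At all gene ends the shares were 78.3% and 67.5%, and at other coding genes of at most 2000 bp 72.5% and 68.2%.

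Pileup ratios at the histone genes had a lower median than at all coding genes, a difference that was not tested. The ratio is the overexpression pileup over the control pileup, each over its genome average. At the 37 members with a summit in both libraries, the median pileup ratio was 1.11, with a range of 0.74 to 2.104, and 24 ratios were above 1. The ratio sets the highest summit of each library side by side wherever it lies. These were a median of 306 bp apart, up to 13577 bp at H2BC5, and within 100 bp of each other at 12 of the 37, so most ratios compare different sites. Over 9742 coding genes with a summit in both, 7911 ratios were above 1 and the median was 1.303. Over 362 other genes of at most 2000 bp, 246 were above 1 and the median was 1.18. A ratio of at least 1.5 in favour of the TCF19 library was reached at 5 of 37 members (13.5%), where 32.7% of all coding genes and 19.3% of the other short genes reached it. In favour of control it was reached at 0 members, where the shares were 1.38% and 4.7%. That split depends on the summit used: with pileups summed over the window, 7 members reached 1.5 in favour of the TCF19 library and 5 in favour of control. The 5 members stand on 3 places: H3C13 with H2BC18 (2.104 and 1.99), H3C2 (1.99), and H2AC15 with H2BC15 (1.80, from 8 and 13 reads). At H2AC15 and H2BC15 the 2 summits lay 667 bp apart, and the TCF19 library also had 12 reads at 27838913, near the control summit at 27838835. The counting interval of the ratio included 1 at all 37 members, and for H3C13 it was 0.93 to 5.07.

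**Figure D3:**
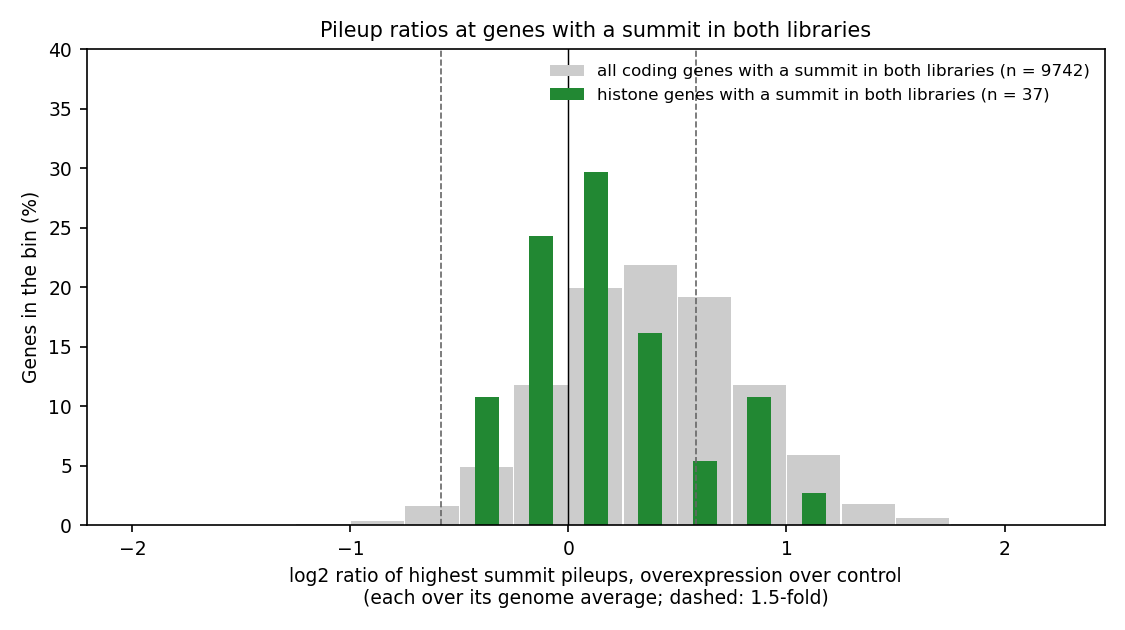
Distribution of the log2 ratio of highest summit pileups, overexpression over control, each relative to its genome average, for 9742 coding genes (grey) and 37 histone genes (green) with a summit in both libraries; bins are 0.25 wide, each set sums to 100%, and dashed lines mark 1.5-fold. The histone genes centre nearer to 0, at a median of 0.15 against 0.38 for all coding genes.

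Most summits in member windows lay inside a short histone gene, and few lay in the DNA just before one. Of the 40 distinct control summits in member windows, 25 (62.5%) stood inside a member of at most 2000 bp, and of the 41 overexpression summits 27 (65.9%). Those genes make up 20.8% of the bases in the windows. Strand and start were known for 55 members of that length, which gave 41 pairings of a gene with a summit in control and 45 in the TCF19 library. Of these pairings 56.1% in control and 57.8% in the TCF19 library lay inside the gene, where such genes are 20.2% of the window bases. At other coding genes of at most 2000 bp the shares inside were 71.6% and 70.5%, with 37.3% of the bases, so lying inside the gene was not particular to histone genes. Only 1 control pairing (2.44%) and 0 overexpression pairings fell in the 250 bases before the start, which make up 9.98% of the window bases. The exception was H1-4, with a summit 7 bp before the start. In the first 250 bases of the gene fell 11 control pairings (26.8%) and 19 overexpression pairings (42.2%). At other coding genes of at most 2000 bp, the 250 bases before the start held 9.09% of pairings in control and 10.7% in the TCF19 library, and the first 250 bases of the gene held 20.3% and 21.8%. The median member summit lay 179 bp past the start in control and 180 bp in the TCF19 library. The member promoters had a median GC content of 42.8%, against 62.0% over all coding promoters. The part of base composition in where summits lay was not tested.

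**Figure D4:**
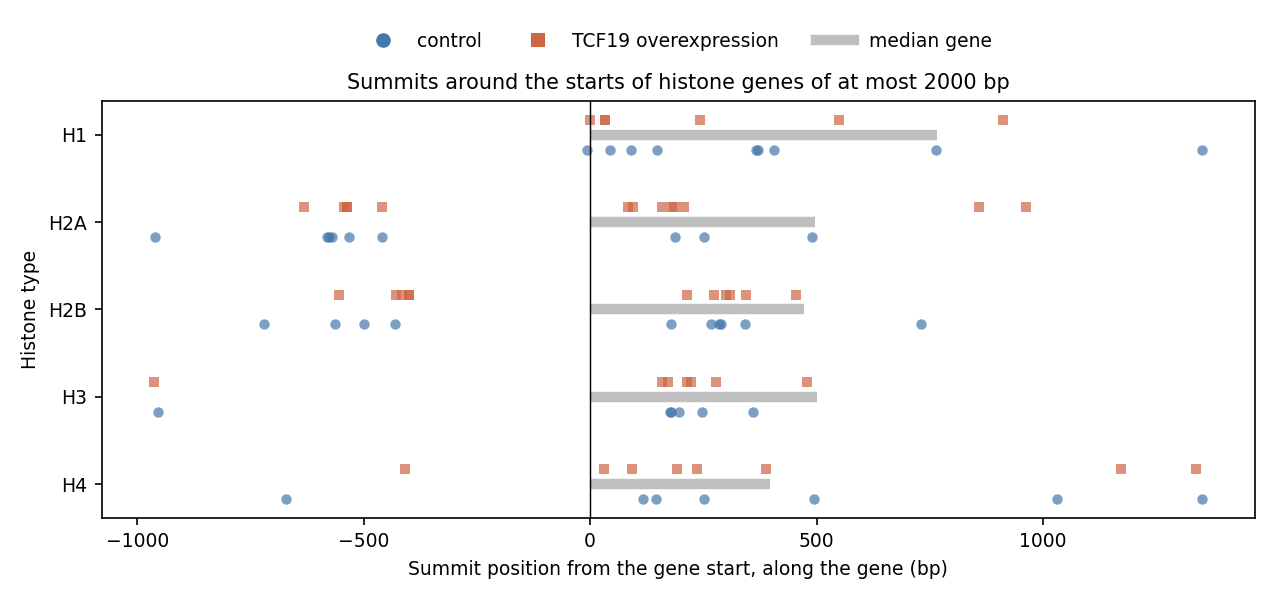
Position of each summit relative to the gene start, in bp along the gene, for histone genes of at most 2000 bp by type, for control (blue circles) and TCF19 overexpression (orange squares); grey bars show the median gene length of each type. Most points lie inside the genes, several H2A and H2B points lie upstream in the paired gene, and the 250 bases before the start hold a single point, of H1-4.

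Head-to-head pairs showed which gene of a pair a summit stood in. There were 12 divergent pairs with starts less than 1000 bp apart, of which 11 joined an H2A with an H2B gene, and a median of 237 bp separated the starts. Control had 8 summits at 7 of these pairs and the TCF19 library 11 summits at 8 pairs. Of these, 0 in each library stood between the starts, a part that makes up only 6.86% of the bases searched, so with this few summits nothing is read from its being empty. Inside the paired genes stood 7 of 8 and 10 of 11. Both libraries had a summit inside a gene at 7 pairs. It was the same gene at 2 of them, H2AC11 of its pair with H2BC11 and H2BC13 of its pair with H2AC13. It was the opposite gene at 3, where the control summit stood in H2BC21, H2AC14 and H2BC17 and the overexpression summit in H2AC20, H2BC14 and H2AC17. By window alone, a summit at such a pair counts for both genes.

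**Figure D5:**
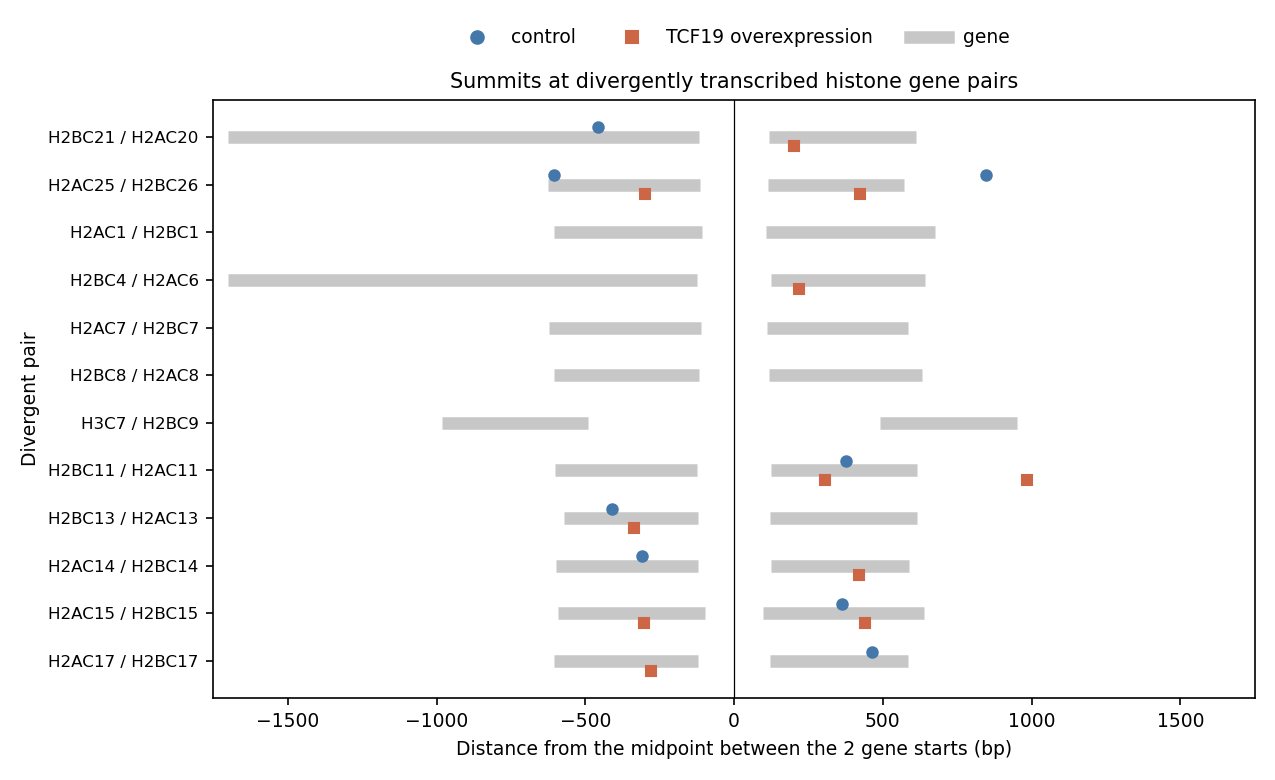
Summits of control (blue circles) and TCF19 overexpression (orange squares) at 12 head-to-head histone gene pairs, as distance in bp from the midpoint between the starts; grey bars are the genes, cut off at the edge for long models. Summits of both libraries stand inside the same gene at 2 pairs and in opposite genes at 3, and 4 pairs have no summit in either.

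Genes for factors of histone expression and processing had a summit at a larger share of members than the histone genes. This list, and the list of other histone genes below, were chosen with earlier results of these data known. Of 32 such genes, most of them far longer than a histone gene, 27 (84.4%) had a summit in control and 30 (93.8%) in the TCF19 library, beside 54.6% and 64.8% of all coding genes. Among the 27 with a summit in both, 15 reached a ratio of at least 1.5 in favour of the TCF19 library and 0 in favour of control, and the median ratio was 1.55. Over all coding genes 32.7% reached it in favour of the TCF19 library and 1.38% in favour of control, and the median was 1.303. SLBP, which binds the histone stem-loop, had 14 reads in control (7.7 to 23.5) and 21 in the TCF19 library (13.0 to 32.1). NCBP2, a cap-binding subunit, had 19 (11.4 to 29.7) and 32 (21.9 to 45.2), EP300, an acetyltransferase, had 12 (6.2 to 21.0) and 27 (17.8 to 39.3), and YY1, a transcription factor, had 17 (9.9 to 27.2) and 25 (16.2 to 36.9). All were higher in the TCF19 library with overlapping intervals. Those are intervals of raw reads, and intervals of the ratio were not computed for this list. Overlap therefore does not place a difference within counting error. NPAT, the coactivator of histone genes, went the other way, with 11 reads (5.5 to 19.7) and 8 (3.5 to 15.8) at summits shared with its neighbour ATM. The cell cycle factor E2F1, with 16 (9.1 to 26.0) and 12 (6.2 to 21.0), was also higher in control, at a ratio of 0.83. The H4 gene regulator HINFP had 16 (9.1 to 26.0) and 14 (7.7 to 23.5), at a nearly equal ratio of 0.97. Intervals overlapped at both genes. CHAF1A and ASF1A, which encode histone chaperones, each had 11 reads in control (5.5 to 19.7) and 22 in the TCF19 library (13.8 to 33.3). ASF1B, the paralogue of ASF1A, had 17 (9.9 to 27.2) and 13 (6.9 to 22.2). The ratio was thus above 1 at ASF1A and CHAF1A and below 1 at ASF1B, with overlapping intervals at each.

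A list of 26 other histone genes, most of them variants that are made outside S phase as well, had a summit at 18 in control (69.2%) and 21 in the TCF19 library (80.8%), beside 54.6% and 64.8% of all coding genes. The list also holds H4C16, a canonical H4 gene on chromosome 12, which counts among the 21 with 23 reads (14.6 to 34.5) in the TCF19 library alone. The median ratio at the 16 with both was 1.27, beside 1.303 over all coding genes, and 2 reached 1.5 in favour of the TCF19 library, beside 32.7% of all coding genes. The ratios of the list were thus not above those of all coding genes. H2AJ, an H2A variant, had 22 reads in control (13.8 to 33.3) and 29 in the TCF19 library (19.4 to 41.6). H3-3B, which encodes H3.3, had 23 (14.6 to 34.5) and 25 (16.2 to 36.9). MACROH2A1 had 13 (6.9 to 22.2) and 25 (16.2 to 36.9). Its read intervals overlapped too, but an interval of its ratio was not computed. These pileups at H2AJ, H3-3B and MACROH2A1 in the TCF19 library exceeded the 19 reads that were the highest of any replication-dependent member there. H1-10 had a summit in control alone, with 21 reads (13.0 to 32.1).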

How the data were processed

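ChIP-seq for TCF19 was analysed in 1 control and 1 TCF19 overexpression library of Ishikawa cells, grouped by genotype label. Per the submitters' processing notes, the authors used the build hg38, BWA 0.7.12 and MACS2 2.1.0. Settings, duplicates, multiply mapped reads and any input are not given in the sources used. The deposited score was 10 times the −log10 q-value at 99.998% of control and 100.0% of overexpression summits. The deposited fold enrichment, a ratio of pileup over local background, was compared only within a list. The deposited −log10 p-values and −log10 q-values start at a −log10 q of 1.3011, which is a q-value of 0.05. Summit positions deposited with each peak were counted from the interval start and are printed from 1.

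Whole pileups were solved from both the deposited fold and its −log10 p-value, with a misfit of at most 0.001, at 99.997% of control and 99.996% of overexpression summits. On simulated data the recovery was exact at 100.0% of 19934 summits. Python 3.11.15, numpy 2.4.6, pandas 2.3.3, scipy 1.17.1 and matplotlib 3.10.9 were used. Genes, coordinates and promoters came from RefSeq, GRCh38.p14, the same assembly as hg38. A summit counted for a gene within 1000 bp of either end, on chromosomes 1 to 22 and X. Ratios have 95% conditional intervals. Depth limits single values, since member summits rest on 7 to 21 reads.

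Members and lists were chosen with earlier results of these data known. Values are given for the 3 highest pileups of each type, for members called in 1 library with at least 15 reads, for ratios of at least 1.5, and for the highest genes of the 2 lists. SLBP, NPAT, E2F1, HINFP, ASF1A, ASF1B, CHAF1A, H1-10, H4C16 and other members were named for their role or as examples. No test was made, since each group has 1 library. Alternatives covered windows, peak thresholds, list length, local background, intervals and shared windows. Protein sequences were not used here.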

Additional observations from a re-analysis of the deposited data

How the results depend on the processing

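Of 218 values for 22 results under 12 alternatives, 176 stayed near the reported value (for counts, within 1.5 times), 42 moved and 0 reversed. The alternative of gene span with 1000 bp on each side was chosen after seeing the data and moved no count. Windows of 500 bp gave 6 members in control alone and 5 H2A members in control. A −log10 q of at least 3 gave 13 members in the TCF19 library alone, 6 in control alone and 22 in both, 2 and 2 chromosome 1 members in control and TCF19, 7 H2A members in TCF19, and 4 H3 and 3 H4 members in control. A fold of at least 4 gave 15 members in control, 24 in TCF19 and 12 in both, with 15 and 22 on chromosome 6 and 0 and 2 on chromosome 1. By type, in control and TCF19, it gave 3 and 6 H2A, 1 and 4 H3 and 2 and 2 H4 members, with 2 H1 members in TCF19 and 5 H2B members in control. With the longer control list shortened to as many top-fold summits as the TCF19 list holds, control had 27 members and the TCF19 library kept 45. Because only control lost summits, 20 members were then in the TCF19 library alone, and control had 5 H2A and 3 H4 members. An interval overlap of at least 50 bp with the gene gave 8 members in control alone and 23 in both, 5 and 6 H2A members, 8 H2B members in TCF19 and 3 H4 members in control. Giving each summit to the nearest member left 6 in control alone and 5 H2A members in control. Merging overlapping windows left 29 loci in TCF19, 5 in TCF19 alone and 24 in both, with 3 and 3 on chromosome 1. Summing pileups over the window put 5 members at a ratio of at least 1.5 with control higher and 7 with TCF19 higher, against 0 and 5. Fewer summits pass a stricter threshold and fewer units are counted after merging; for the others the cause was not tested. Ratios of deposited folds were not run, since folds are compared only within a list. No paired analysis was possible because each group had 1 library with no replicate number.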

Other observations

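Histone pseudogenes of the clusters, which carry no intact reading frame, were described in the same way. Of 14, 10 had a summit within 1000 bp of either end in control and 9 in the TCF19 library. Outside the windows of coding members these numbers were 6 and 5. Over all coding genes the shares with a summit were 54.6% in control and 64.8% in the TCF19 library. Other coding genes of at most 2000 bp had 38.4% and 39.4%. With 14 pseudogenes, nothing is read from these counts. H2AC3P had 10 reads in control and 20 in the TCF19 library, at summits 25882202 and 25882253 on chromosome 6. H2BC27P, near the chromosome 1 pair, had 17 and 13. H2BC2P and H2AC2P shared summits of 20 and 13 reads on chromosome 6, beside H2AC1 and H2BC1, which had none. These pseudogenes reached pileups as high as those of the coding histone genes, whose highest values were 21 reads in control and 19 in the TCF19 library. H2BC19P and H2BC20P, in the summit-free stretch of chromosome 1, had no summit.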
